A study of Mus musculus with 3 samples.

Results

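Trpm8 nuclei are the sensory neuron nuclei of the mouse dorsal root ganglion (DRG) that carry RNA of Trpm8, the ion channel opened by cool temperatures and by menthol. They were chosen by a readout of the same data. A barcode was kept when it had more than 1000 detected genes and at least 0.5% of its unique molecular identifiers (UMIs, each standing for 1 captured RNA molecule) from Malat1, a nuclear RNA. A kept nucleus was counted as a Trpm8 nucleus when it held at least 3 Trpm8 UMIs and more of them than of 6 other genes summed, which mark other sensory neurons: Lpar3, Tafa4, Nxph1, Chrna7, Il31ra and Sstr2. This gave 176 nuclei out of 17290 kept nuclei, and 7129 of those kept nuclei were neuron nuclei by their neuronal transcripts. All 176 passed the neuron rule as well.

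The 3 libraries were made by PIP-seq single-nucleus RNA sequencing, in which nuclei are tagged in droplets formed around template particles, from frozen lumbar (L3 to L5) DRGs of C57BL/6 mice. Adult replicate 1 came from 3-month-old mice and aged replicates 1 and 2 from 21-month-old mice, and neither group carried a transgene or received a treatment. The sample labels call all mice male and give 21 months for the aged group, whereas the series text gives 12 months and the study's methods describe its aged mice as female. Xist, the RNA made by the inactive X chromosome of female cells, was at 1470, 956 and 990 CPM (UMIs of the gene per 1000000 UMIs) in the kept nuclei of the 3 libraries, and the Y-linked Ddx3y was at 19.6, 10.9 and 7.24 CPM. The Xist level of the libraries labelled male goes against that label. The number of mice pooled into a library was not given, and with 1 adult library every age comparison is one library against a pair.

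Cold is sensed in the skin by thin unmyelinated and lightly myelinated fibres, and loss of Trpm8 removes most responses to innocuous cool. The threshold of these neurons is known to be set by the balance between the excitatory channel and the potassium channels that oppose it, a brake formed by Kv1 channels and background two-pore-domain channels among them. Some cold neurons also carry peptides or nociceptor channels and are thought to serve cold pain, while others serve the sense of coolness.

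The Trpm8 gene (ENSMUSG00000036251) lies at chr1:88277661-88389293 on the plus strand of GRCm38, as GENCODE M21 gives it, and overlaps 4930453O03Rik on the other strand. The 150 bases before its RefSeq start (GRCm38.p6, chr1:88306585-88306734, plus strand) are shown because the start of the gene that defines these nuclei carries a TATA-like box, TATAAA, in capitals, with its first base 30 bases before the start.

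Trpm8 upstream: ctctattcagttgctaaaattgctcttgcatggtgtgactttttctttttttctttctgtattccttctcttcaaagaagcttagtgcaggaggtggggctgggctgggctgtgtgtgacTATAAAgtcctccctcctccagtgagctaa

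TATAAA occurred on the gene strand of 4.84% of the 32851 RefSeq promoter windows (1590 of them), each running from 250 bases before to 50 after a start. Other Trpm8 transcripts in GENCODE M21 start upstream of this window, and the match is a description of letters only.

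In the rest of the text, values for the 3 libraries stand in the order adult replicate 1, aged replicate 1 and aged replicate 2. The files held 167664164, 95647106 and 69045987 UMIs in all. Barcodes of more than 1000 genes numbered 11518, 5130 and 2611. Kept nuclei of different libraries shared a single barcode, between adult replicate 1 and aged replicate 2, and Trpm8 nuclei shared none.

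The 3 libraries gave 91, 52 and 33 Trpm8 nuclei. Their median Trpm8 UMIs were 22, 23.5 and 20, with a maximum of 106, 146 and 129. Just inside the threshold, 9, 5 and 1 nuclei held exactly 3 UMIs. Just outside it, 7, 1 and 3 nuclei had 2 UMIs that still exceeded the other genes. Another 45, 38 and 35 nuclei held at least 3 Trpm8 UMIs but not more than the 6 genes summed, and 36, 24 and 25 of these would have entered had Il31ra not been counted. Those nuclei left out had a median of 4, 5 and 6 Trpm8 UMIs in median totals of 25338, 54700 and 57682 UMIs.

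Trpm8 nuclei were deeper than neuron nuclei as a whole. Their median total was 16452, 28590.5 and 29463 UMIs, against 7400.5, 6962.5 and 10740 over all neuron nuclei, and they had a median of 5065, 6922 and 7170 detected genes. Depth was not particular to them. Nuclei chosen by the same rule with Lpar3 leading had medians of 23247, 40325 and 48170 UMIs, and with Tafa4 leading 22372, 33593 and 43159.5. With Nxph1 leading the medians were 20977, 17214 and 32697, and with Chrna7 leading 22495, 19065.5 and 30544. With Il31ra leading they were lower, at 5673, 9371.5 and 11570. Since the rule needs 3 UMIs, a shallow cold-sensing nucleus could escape it. Summed over the Trpm8 nuclei of a library, Trpm8 stood at 1629, 1316 and 1217 CPM. Barcodes holding at most 100 UMIs, which catch RNA floating free in the suspension, had 22.4, 21.2 and 20.1 CPM. A Trpm8 UMI was found in 1.07, 1.18 and 1.22% of the nuclei that were not neuronal, whose median totals were 2860, 3839.5 and 4180 UMIs.

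The 9 neuron markers summed to 11416, 8690 and 8453 CPM in Trpm8 nuclei, against 8190, 9094 and 9522 CPM in free RNA, which was the higher in both aged libraries. The 44 markers of satellite glia, myelinating Schwann cells, vessels, fibroblasts, blood and immune cells summed to 831, 779 and 577 CPM, against 7745, 8036 and 5438 CPM in free RNA. If all of that signal were free RNA, it would make up 10.7, 9.70 and 10.6% of the UMIs of Trpm8 nuclei. Markers of non-myelinating Schwann cells were left out of that sum, at 1370, 1498 and 1406 CPM, because Gfra3 and Scn7a among them are also neuronal. Kcnj8 of pericytes and Cd163 of macrophages had no UMI at all. Others of their lists had UMIs, such as Rgs5 at 39, 12 and 26 UMIs and Cx3cr1 at 27, 12 and 6. Sst and Nppb, peptides of itch neurons, gave at most 5 and 4 UMIs in any library. Il31ra, listed with them as an itch neuron marker and used by the rule, gave 675, 316 and 182 UMIs.

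The question of how common these neurons are was put as a share of neuron nuclei. Trpm8 nuclei made up 2.11% (95% exact Clopper-Pearson interval 1.70 to 2.59) of the 4308 adult neuron nuclei. In aged replicate 1 the share was 2.95% (2.21 to 3.85) of 1762, and in aged replicate 2 it was 3.12% (2.15 to 4.35) of 1059. The aged mean of 3.03% ± 0.117 (SD, n = 2) was 1.44 times the adult share. The intervals cover counting error only, and an exact permutation test over the 3 libraries gave a two-sided p = 0.333, the smallest that this design allows. Nuclei of at least 2000 UMIs were also thinned to that number before the rules were applied, which left 3717, 1568 and 959 neuron nuclei. The shares were then 1.35, 1.40 and 1.46% and the ratio was 1.06. As a share of the thinned nuclei in all 7 gates they were 3.90, 6.61 and 7.00%, a ratio of 1.74. The plot of shares by library shows the 3 intervals overlapping in each of its 3 versions. By other denominators some intervals did not overlap. As a share of the nuclei of all 7 gates the adult interval was 1.90 to 2.88%, below that of aged replicate 1 (2.93 to 5.08%). As a share of all kept nuclei the Trpm8 nuclei were 0.832% in the adult library and 1.38% ± 0.169 (SD, n = 2) in the aged ones, and the adult interval of 0.670 to 1.02% was below that of aged replicate 2 (1.03 to 2.09%). With more than 2000 genes required, the share of all kept nuclei was 1.87, 1.86 and 2.16%, a ratio of 1.08. After thinning to 2000 UMIs it was 0.551, 0.623 and 0.717%, a ratio of 1.22. The share of the 7 gates with more than 2000 genes was 2.92, 4.03 and 4.23%, a ratio of 1.42. In each of these settings the intervals of the 3 libraries overlapped.

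**Figure D1:**
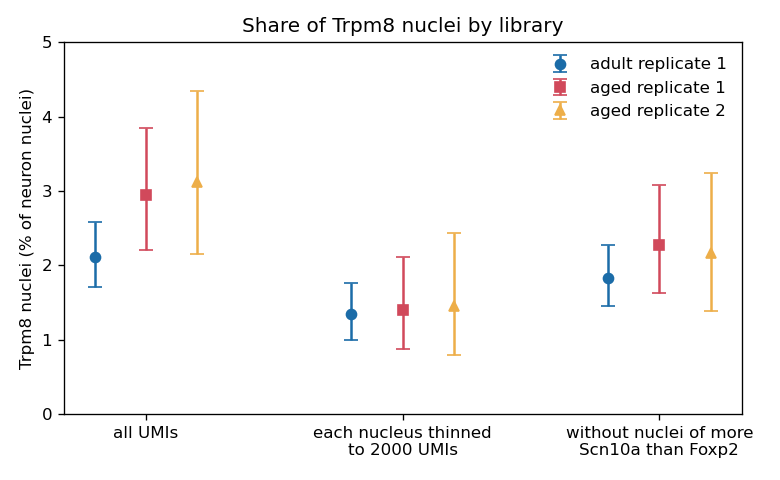
Trpm8 nuclei as a percentage of neuron nuclei (y axis) in the 3 libraries, with all UMIs, after thinning each nucleus to 2000 UMIs, and without the nuclei that held more Scn10a than Foxp2 UMIs. Points are shares and bars are 95% exact intervals of counting error; the intervals of the 3 libraries overlap in each version, and the aged to adult ratio is 1.44, 1.06 and 1.21.

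To find what else these nuclei transcribe, UMIs were summed over the nuclei of each library and gate. The same rule with another leading gene gives the other gates: Lpar3 (328 nuclei, which in DRG marks Mrgprd-type nociceptors), Tafa4 (490, C low-threshold mechanoreceptors), Nxph1 (193), Chrna7 (320) and Il31ra (4531). Of the 3008, 978 and 545 nuclei of the Il31ra gate, 1777, 599 and 360 were neuron nuclei. Il31ra was at 1345, 1125 and 1397 CPM in free RNA and at 705, 506 and 493 CPM in the gate itself. The Sstr2 gate held 5 nuclei and was not compared. Trpm8 nuclei were tested against the mean of the 5 other gates with edgeR's quasi-likelihood test, with the library as a block. The nuclei of a library are not replicates, so n is 3 libraries. The fold change is against the mean of the log levels of the 5 gates, which a single high gate does not set.

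Of 15004 genes tested, 22.4% passed an adjusted p of 0.05, with 11.3% higher and 11.1% lower in Trpm8 nuclei. The genes named here were, by the naming rule, above every other gate in each library, or below every one. Kcnk9, which encodes the acid-sensitive background potassium channel TASK-3 (chr15:72501089-72546340), was at 124, 122 and 114 CPM, and its highest other gate, Il31ra, at 3.46, 2.86 and 5.07 CPM. The difference was 7.40 ± 0.17 (SE) on the log2 scale, with an adjusted p = 6.76e-15 by edgeR. The 3 libraries of Trpm8 nuclei differed little among themselves, with a mean of 120.1 CPM ± 5.08 (SD, n = 3).

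The orphan receptor gene Gpr26 (chr7:131966460-131994405) was at 150, 164 and 182 CPM and differed by 6.76 (SE 0.19). Its neighbour Cpxm2, which encodes a carboxypeptidase-like secreted protein (chr7:132032687-132154739), was at 131, 145 and 156 CPM, with a difference of 6.39 (SE 0.22). Both overlap Fgfr2 in the annotation, on opposite strands and on the same strand respectively, and whether reads were counted by strand was not given. Foxp2, a forkhead transcription factor (chr6:14901349-15441977), reached 741, 716 and 631 CPM, against 85.5, 41.4 and 48.5 CPM in the Il31ra gate and 105, 68.5 and 57.8 CPM in free RNA. Its log2 difference was 5.41 ± 0.18 (SE; edgeR adjusted p = 1.06e-12).

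Lyzl4, a lysozyme-like gene that overlaps Lyzl4os, was at 47.8, 55.1 and 42.6 CPM with a difference of 6.01, larger than that of Foxp2. The sodium-phosphate cotransporter gene Slc34a2 differed by 5.35, the metalloprotease gene Adamts16 by 5.05 and the splicing regulator gene Rbm20 by 4.79. Col4a3 and Col4a4, which encode collagen IV chains and lie head to head on chromosome 1 (chr1:82586921-82722059 and chr1:82448423-82586849), were both high. Col4a3 was at 133, 131 and 64.9 CPM (difference 4.86) and Col4a4 at 93.3, 108 and 68.8 CPM (difference 4.32). Aged replicate 2 was the lowest library for both, and still above all libraries of the other gates. Grm3, which encodes a metabotropic glutamate receptor, was at 193, 273 and 135 CPM, with a difference of 4.62. The remaining genes named by the rule were 8430422H06Rik, Zcchc12, Slc6a7 and Trank1, which differed by 4.84, 4.63, 4.42 and 4.25.

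Over all genes that passed, 731 were more than 2-fold higher and 697 more than 2-fold lower. Kif23, which encodes a kinesin, was at 1.15, 1.90 and 0.969 CPM, against 144, 115 and 149 CPM in the Tafa4 gate, and was lower by −4.04 (SE 0.35). Car10, a carbonic anhydrase-related gene, was at 101, 117 and 37.8 CPM, against 1456, 1301 and 1378 CPM in the Lpar3 gate, and its difference was −3.25. Pawr, 5033421B08Rik, Trpc5, Dock4, Rtl4 and Hsd17b14 differed by −3.48, −3.45, −3.21, −3.00, −2.99 and −2.85. The plot of the named genes shows the 15 higher genes to the right of all gates, and the 8 lower genes to the left, where the highest gate was Lpar3 or Tafa4 for each. Against single gates, 21 of the 23 named genes passed for all 5, Hsd17b14 for 4 and Trpc5 for 3. The naming rule had already asked for a level beyond every gate, so these passes are not separate support.

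**Figure D2:**
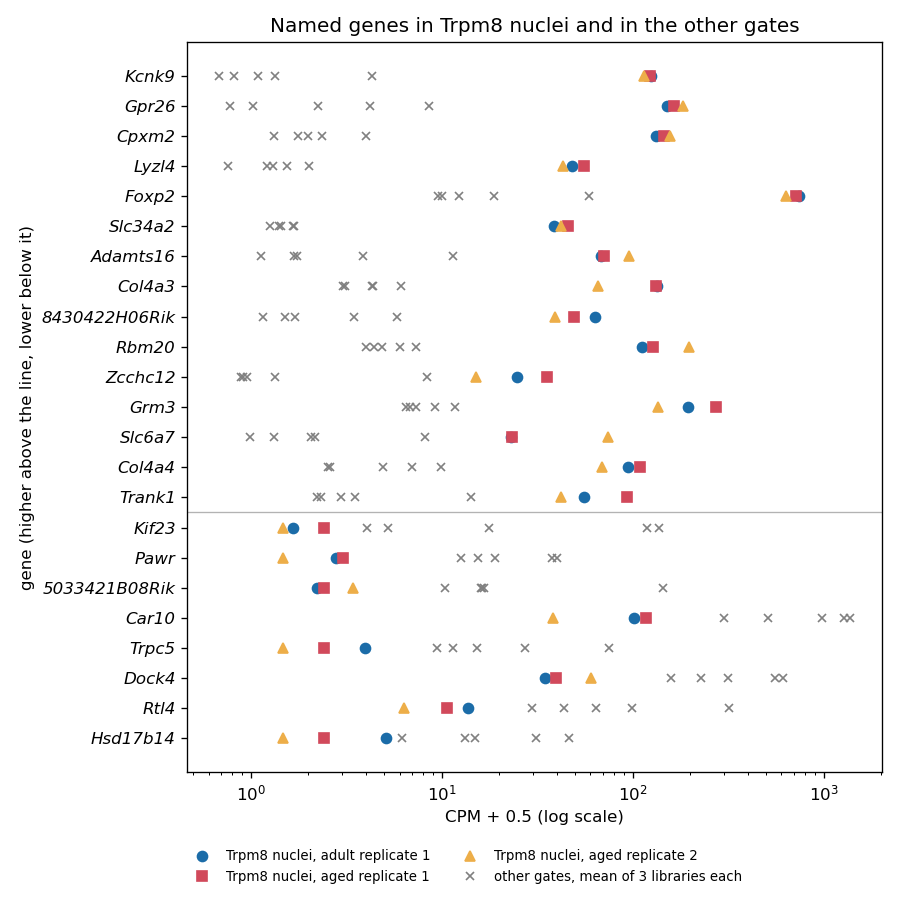
Level in CPM + 0.5 (x axis, log scale) of the 23 genes named by the rule (y axis), in Trpm8 nuclei of the 3 libraries (coloured points) and in the 5 other gates (grey crosses, each the mean of 3 libraries). Kcnk9 lies at 114 to 124 CPM in Trpm8 nuclei and Foxp2 at 631 to 741 CPM, to the right of every cross.

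Ion channels of the TRP family are given first, and the count of each list stands against 11.3% higher and 11.1% lower over all genes tested. Higher and lower in the lists mean against the mean of the log levels of the 5 gates. A single gate could still lie above the Trpm8 nuclei for a higher gene, or below them for a lower one. Such gates are not given for every gene. Of 16 tested, 5 were higher and 4 lower, with a median difference of 0.05 beside −0.02 over all genes tested. Trpv1, the heat and capsaicin channel, was at a mean of 80.8 CPM ± 13.8 (SD, n = 3) and differed by 1.53 (edgeR adjusted p = 0.000608). The Il31ra gate was as high, at 99.4, 87.5 and 120 CPM. Trpc4 was at 66.8, 98.9 and 65.9 CPM and differed by 2.00, with the Tafa4 gate overlapping it at 41.7, 59.8 and 82.4 CPM. Trpm3, a heat channel, was at 1688, 1155 and 1383 CPM, differed by 0.86, and overlapped the Lpar3 gate. Trpm2 and Trpv2 were higher by 1.04 and 0.53, though the Lpar3 gate was above the Trpm8 nuclei for Trpv2 in each library. For Trpm2 the Nxph1 gate was above them in the adult library. Trpc1 was lower by −0.46, Trpc6 was lower at 5.76, 3.80 and 2.91 CPM, and Trpc5 is named above. By the mean of the 3 libraries the Lpar3 gate was below the Trpm8 nuclei for Trpc1, at 71.6 against 84.0 CPM. Trpv4 was under 1 CPM on average and did not pass (difference −2.06, edgeR adjusted p = 0.0651). Trpa1, the irritant channel, was at 4.60, 24.7 and 11.6 CPM with a difference of 0.37 that did not pass. Pkd2, Trpm4, Trpm7 and Mcoln1 differed by −0.21, 0.18, 0.12 and −0.02 and did not pass.

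The potassium channels listed as cold brakes or background channels split, with 10 of 26 higher, 7 lower and a median of −0.20. The mechanosensitive two-pore channel gene Kcnk2 (TREK-1) was at 154, 156 and 137 CPM, against 46.8, 40.6 and 42.8 CPM in the Il31ra gate, with a difference of 3.04. Kcnk3 (TASK-1) differed by 2.90 and Kcnc2 (Kv3.2), at 996, 982 and 794 CPM, by 2.60. Kcna1, part of the Kv1 brake, was lower by −1.13, whereas its partner Kcna2 was higher by 0.87. Kcnq3, part of the M-current channel, was lower by −1.38. By the mean of the 3 libraries the Lpar3 gate was below the Trpm8 nuclei for Kcna1 (32.6 against 42.0 CPM) and Kcnq3 (11.5 against 39.7 CPM). Hcn4, a pacemaker channel gene, was at 54.1, 71.0 and 94.0 CPM against 12.1, 13.9 and 14.8 CPM in the Il31ra gate, a difference of 3.41, and Hcn2 differed by 0.58. For Hcn2 the Nxph1 gate was above the Trpm8 nuclei in both aged libraries. Hcn3 did not pass (0.32).

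Among 11 sodium channel genes 5 were higher and 1 lower, beside 11.3% and 11.1% of all genes. Scn2b differed by 2.09, Scn3a by 1.77, Scn3b by 0.90, Scn1a by 0.64 and Scn2a by 0.44. In each library the Nxph1 gate was above the Trpm8 nuclei for Scn1a, and the Tafa4 gate for Scn3b. For Scn2a the Nxph1 gate was above them in adult replicate 1 and aged replicate 1. For Scn3a the Tafa4 gate was above them in aged replicate 2, at 106 against 89.1 CPM. Scn10a (Nav1.8), which carries the nociceptor action potential, was lower by −1.02, at 241, 318 and 431 CPM against 2365, 1612 and 1789 CPM in the Lpar3 gate. The Nxph1 gate was below the Trpm8 nuclei for Scn10a, at 27.1, 72.6 and 130 CPM. Scn11a (Nav1.9) was at 99.6, 137 and 147 CPM and did not pass (difference −0.80, edgeR adjusted p = 0.0653). Nor did Scn9a, Scn8a or Scn4b pass: Scn9a (Nav1.7) was at 850, 791 and 794 CPM with a difference of 0.10, and Scn8a and Scn4b differed by −0.29 and 0.49.

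Calcium channel genes were higher in 7 of 14 and lower in none. Cacnb2, a regulatory subunit, was at 473, 558 and 669 CPM against 101, 129 and 174 CPM in the Il31ra gate, and differed by 3.52. Cacna1h (Cav3.2) and Cacna1e (Cav2.3) differed by 2.47 and 2.42, though the Tafa4 gate was above the Trpm8 nuclei for Cacna1h in each library. Of 8 Piezo and acid-sensing genes 4 were lower. The touch channel gene Piezo2 was at 306, 257 and 267 CPM, against 4448, 2729 and 2864 CPM in the Tafa4 gate, and differed by −2.53. Tmem150c was lower by −1.59, and Asic1 was higher by 1.78, at 77.1, 71.6 and 70.7 CPM, with the Nxph1 gate above it at 89.4, 81.4 and 84.2 CPM. Piezo1 did not pass (difference −1.43, edgeR adjusted p = 0.123).

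**Figure D3:**
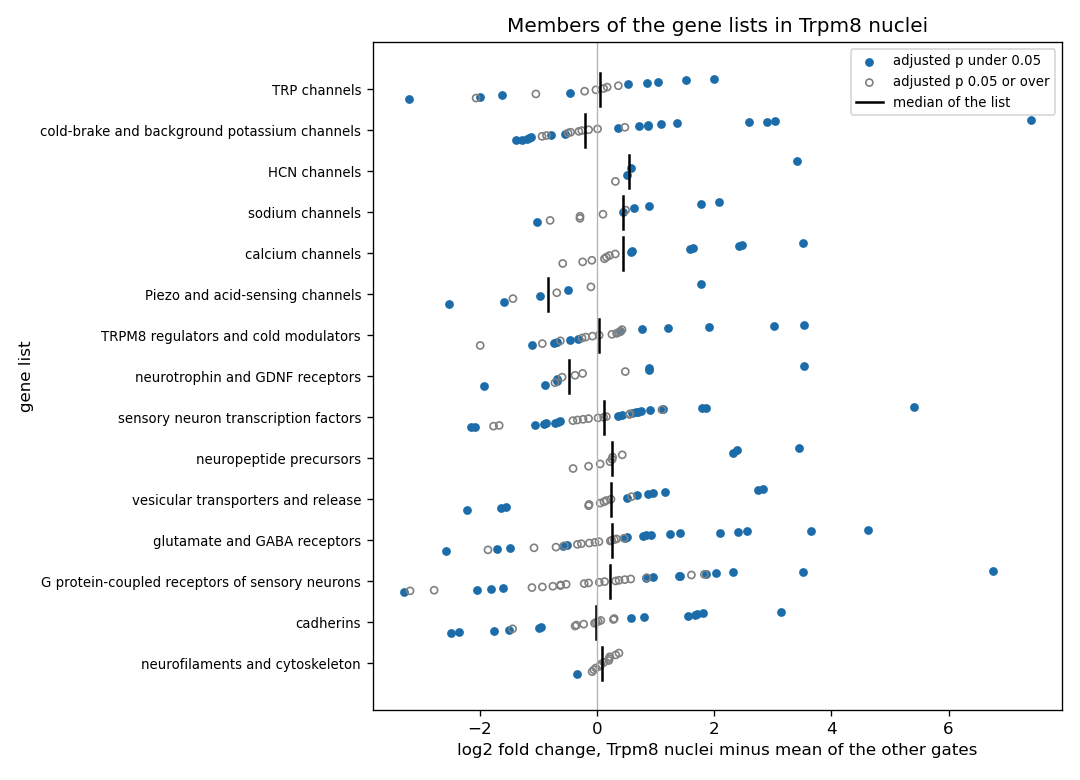
Log2 fold change of Trpm8 nuclei minus the mean of the other gates (x axis) for the tested members of 15 gene lists (y axis). Filled points passed an adjusted p of 0.05 by edgeR, open points did not, and bars mark list medians; calcium channels hold 7 filled points, all above 0, and Kcnk9 stands alone at 7.40.

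Genes known to regulate TRPM8 or to modulate cold sensing had 6 of 23 higher and 5 lower. Gfra3, the receptor for artemin, was at 132, 140 and 213 CPM and differed by 3.54 (SE 0.19), above 64.1, 66.9 and 100 CPM in the Il31ra gate. Plcd4, a phospholipase that cleaves PIP2, the lipid that keeps TRPM8 open, was at 360, 221 and 286 CPM and differed by 3.02. Fgf13, which binds sodium channels, differed by 1.21 and Pirt, a membrane protein that binds TRPM8, by 0.77. Pirt was at 334, 347 and 387 CPM, and the Lpar3 gate overlapped it at 457, 352 and 348 CPM. Plcg2 was higher by 1.91, at 35.7, 63.4 and 40.7 CPM, below the 47.8, 68.3 and 81.2 CPM of the Tafa4 gate. Plcb4, Plcb3 and Gnaq were lower by −1.11, −0.73 and −0.46. By the mean of the 3 libraries some gates lay below the Trpm8 nuclei: Lpar3 for Plcb4, and Tafa4 and Nxph1 for Plcb3 and Gnaq. For Plcb3 these were at 32.0 and 36.0 CPM against 60.6 CPM. Hrh1, a histamine receptor gene, differed by −1.99 and did not pass (edgeR adjusted p = 0.0501).

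Of 12 neurotrophin and GDNF receptor genes, 3 were higher and 4 lower, and Gfra4 differed by 0.89. Ret, Gfra1, Gfra2 and Ntrk3 were lower by −0.69, −1.92, −0.88 and −0.67. Ntrk2, Il6st and Ngfr did not pass, with differences of 0.48, −0.37 and −0.24.

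Sensory neuron transcription factors had 11 of 31 higher and 8 lower, with a median of 0.11. Behind Foxp2, Ebf2 differed by 1.86, Bcl11a by 1.79, Zeb2 by 1.12 and Bnc2 by 0.90, with the Lpar3 gate above the Trpm8 nuclei for Bnc2 in each library. Runx1, which directs nociceptor and cold neuron development, was at 478, 456 and 427 CPM and differed by 0.75, though the Lpar3 gate was higher at 953, 715 and 717 CPM. Cux2, Prdm12, Prrxl1, Isl1 and Tshz2 were higher by 0.71, 0.67, 0.60, 0.43 and 0.35. Here too 1 gate lay above the Trpm8 nuclei in each library for Cux2 (Nxph1), Prrxl1 (Tafa4) and Tshz2 (Lpar3). Runx3 and Etv1, factors of proprioceptors, were lower by −2.14 and −1.05, and Casz1 by −2.09. Nfia, Onecut2, Hopx, Maf and Foxp1 were lower by −0.89, −0.86, −0.72, −0.67 and −0.63. With Il31ra not counted in the rule, Hopx and Nfia lay the other way, at 0.25 (edgeR adjusted p = 0.213) and 0.28 (edgeR adjusted p = 0.0612), without passing. Bcl11b, Ebf3, Tlx3, Ebf1, Pou4f1 and Nfib did not pass.

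Neuropeptide precursors had 3 of 10 higher and none lower. Tac1, the precursor of substance P, was at 248, 371 and 180 CPM and differed by 2.32. The Il31ra gate, at 217, 179 and 181 CPM, overlapped it. Gal differed by 3.44 and Adcyap1 by 2.39. Calca, the CGRP precursor, was at 222, 307 and 176 CPM and did not pass (difference 0.43, edgeR adjusted p = 0.171). Nmb and Calcb differed by −0.41 and 0.26 and did not pass. Penk, the enkephalin precursor, was at 24.8, 76.0 and 2.91 CPM, which ranged more between the aged libraries than between ages, and was not tested in this comparison.

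Vesicular transporters and release genes had 7 of 17 higher and 3 lower. Slc17a8 (VGLUT3) was at 35.7, 39.9 and 24.2 CPM, below the 100, 101 and 138 CPM of the Tafa4 gate, and differed by 2.83 from the mean of the log levels of all 5 gates. Syt10 was higher by 2.75 and Unc13c lower by −2.22. Glutamate and GABA receptors had 12 of 31 higher and 5 lower. Gabrg3 differed by 3.66, Gabrb1 by 2.57 and Grik1 by −2.57. Grin3a, an NMDA receptor subunit gene, was at 394, 415 and 384 CPM and differed by 2.40.

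G protein-coupled receptor genes of sensory neurons had 9 of 32 higher and 4 lower. The neuropeptide Y receptor gene Npy1r differed by 3.51 and Oprm1, the mu-opioid receptor gene, by 2.32, at 437, 528 and 411 CPM. The serotonin receptor gene Htr4 differed by −3.29, and Mrgprx1 by −3.19 without passing (edgeR adjusted p = 0.134). Purinergic channels had 1 of 6 higher and 2 lower, with P2rx2 at a difference of 3.00 from 5.18, 5.07 and 3.88 CPM and P2rx3, the ATP channel of nociceptors, at −1.88. Cadherins had 7 of 23 higher and 6 lower. Cdh8, an adhesion molecule of synapses, was at 1086, 819 and 892 CPM against 340, 381 and 227 CPM in the Nxph1 gate, and differed by 3.14. Cdh9 and Cdh7 differed by −2.49 and −2.35. Axon guidance and synaptic adhesion genes had 5 of 38 higher, a share near the 11.3% of all genes, and 10 lower, beside 11.1%. Robo1, Epha6 and Efna5 differed by −2.68, −2.08 and −2.01. Neurofilament and cytoskeleton genes had none of 12 higher and 1 lower, Ank2 at −0.34.

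Trpm8 nuclei were not uniform. They were split by whether Foxp2 or Scn10a gave more UMIs, a split that was chosen after the values had been seen and gets no test. Nuclei with more Foxp2 than Scn10a UMIs numbered 75, 38 and 20. Those with more Scn10a numbered 12, 12 and 10, or 13.2, 23.1 and 30.3% of the Trpm8 nuclei, and 4, 2 and 3 held neither. Both genes were seen in 41, 22 and 9 nuclei, and Scn10a without Foxp2 in 7, 8 and 10. In the plot of single nuclei most points above the line lie at 0 Foxp2 UMIs, all 10 of aged replicate 2 among them. Among the nuclei in which both genes were seen was a nucleus of aged replicate 1 that had 35 Foxp2, 69 Scn10a and 85 Trpm8 UMIs.

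**Figure D4:**
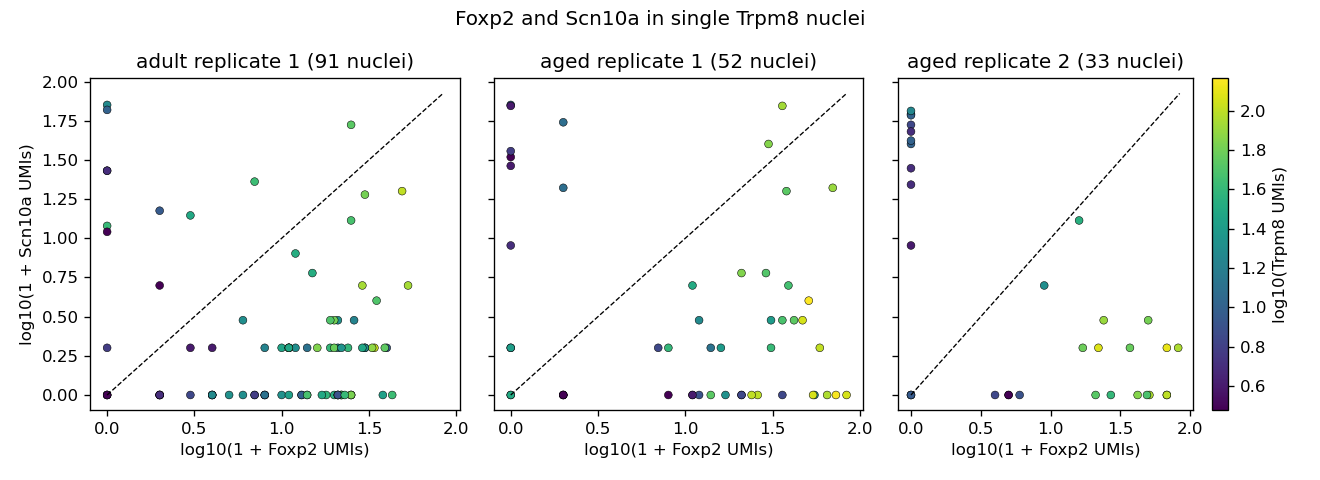
Foxp2 (x axis) against Scn10a UMIs (y axis), both as log10(1 + UMIs), in each Trpm8 nucleus of the 3 libraries, with colour for log10 of Trpm8 UMIs and a dashed line where both genes are equal. Above the line lie 12, 12 and 10 nuclei, whose median Trpm8 was 10.5, 9 and 7.5 UMIs against 27, 35.5 and 58 in the nuclei below it. Trpm8 is used by the rule, so these medians are a description only.

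Trpm8 itself was at 806, 549 and 247 CPM in the nuclei of more Scn10a, against 1790, 1605 and 1662 CPM in the Foxp2 nuclei. Because the rule uses Trpm8, its levels are a description and no support for the split. Kcnk9 was at 24.0, 11.2 and 0 CPM against 145, 167 and 171 CPM, and Cdh8 at 353, 330 and 48.3 CPM against 1234, 1022 and 1287 CPM. In each library both genes were lower on the Scn10a side. Calca was at 549, 751 and 416 CPM against 156, 128 and 61.3 CPM, and Scn11a at 326, 343 and 410 CPM against 54.4, 54.5 and 23.4 CPM. Piezo2 was at 1159, 572 and 591 CPM on the Scn10a side against 134, 134 and 97.8 CPM. Tac1, Trpv1 and Gfra3 did not keep one order in all 3 libraries. Tac1 was at 185, 469 and 308 CPM on the Scn10a side against 261, 330 and 120 CPM, Trpv1 at 65.1, 184 and 148 CPM against 92.8, 52.7 and 26.3 CPM, and Gfra3 at 96.0, 168 and 299 CPM against 140, 130 and 177 CPM. All 3 were lower on the Scn10a side in the adult library and higher there in both aged ones. The median totals of the Scn10a side were 26111.5, 34888.5 and 37516.5 UMIs, against 16540, 28590.5 and 30212.5 on the Foxp2 side. Whether a barcode held more than 1 nucleus was not tested.

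With each nucleus thinned to 5000 UMIs, which left 77, 44 and 28 Trpm8 nuclei, a Foxp2 UMI was present in 85.7, 77.3 and 57.1% of them. In the Chrna7 gate the same share was 4.90, 3.95 and 7.55%, and in the Il31ra gate 16.2, 13.2 and 13.3%. Before thinning, the shares of Trpm8 nuclei with a Foxp2 UMI were 87.9, 80.8 and 60.6%. Kcnk9 was present in 44.2, 40.9 and 35.7% of the thinned Trpm8 nuclei and in none of the thinned Chrna7 nuclei (upper limits 2.55, 4.74 and 6.72%), with 1.05, 0.430 and 0.783% in the Il31ra gate. Without thinning, it was present in 62.6, 69.2 and 54.5% of the Trpm8 nuclei and in 3 of 175, 1 of 88 and 1 of 57 Chrna7 nuclei. Penk was present in 5.19, 29.5 and 0% of the thinned Trpm8 nuclei, so that aged replicate 1 stood apart from both other libraries.

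Age was compared in the sums of Trpm8 nuclei, aged (n = 2) against adult (n = 1), with edgeR. This fit has 1 residual degree of freedom and takes the single adult library to vary like the aged ones. Library and age cannot be told apart on the adult side. Of 12344 genes tested, 0.899% passed, with 0.0729% higher and 0.826% lower in aged nuclei. These were 111 genes, among them Malat1 and Il31ra, which the rule uses, so 9 higher and 100 lower are described. The count depends on the settings, from 6 of 1092 genes tested (0.549%) to 734 of 13951 (5.26%). The lowest share was 0.100%, with free RNA subtracted. Malat1 made up a median of 5.25, 1.80 and 2.11% of the UMIs of a Trpm8 nucleus, so the adult library stood apart in it, and its part in the age differences was not tested. With free RNA subtracted 2 of the 16 named genes still passed, Bc1 and Gm48594, and none turned direction: Pde4c, Car8 and Zmat4, described next, then differed by 4.79, 3.90 and 1.60 without passing. With DESeq2 7 of the 16 passed.

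Higher in aged Trpm8 nuclei were Pde4c, a phosphodiesterase gene, at 5, 47 and 56 UMIs or 2.88, 29.8 and 54.3 CPM (difference 3.60, edgeR adjusted p = 0.00206), and Car8, a carbonic anhydrase-related gene, at 4.03, 33.0 and 55.2 CPM (difference 3.20, edgeR adjusted p = 0.00232). Zmat4, a zinc finger gene, was at 111, 305 and 407 CPM and differed by 1.48 (edgeR adjusted p = 0.00321). In the aged libraries the Pde4c UMIs came from 9 and 6 nuclei, with 14 and 20 in the highest nucleus. Those of Car8 came from 9 and 7 nuclei, with 16 and 25 in the highest, and those of Zmat4 from 24 and 18, with 94 and 69. In the Il31ra gate Pde4c was at 52.0, 55.4 and 88.5 CPM, Car8 at 30.0, 41.5 and 49.8 CPM and Zmat4 at 351, 400 and 467 CPM. The adult library thus held all 3 genes in that gate above the level of its Trpm8 nuclei. The remaining gates held at most 7.96 CPM of Pde4c and 15.6 CPM of Car8 in any library. The 3 genes were higher on the Scn10a side of the split, which held 13.2, 23.1 and 30.3% of the Trpm8 nuclei. Pde4c was at 13.7, 98.6 and 169 CPM there against 0.698, 2.68 and 0 CPM on the Foxp2 side, and Car8 at 6.86, 108 and 169 CPM against 3.49, 3.57 and 1.46 CPM. Zmat4 was at 192, 747 and 1011 CPM on the Scn10a side against 94.9, 132 and 124 CPM. Whether the share of the Scn10a side, or the level within it, has a part in the age differences was not tested. Without the nuclei of more Scn10a, Pde4c and Car8 were too low to be tested, and Zmat4 differed by 0.23 (edgeR adjusted p = 0.898). With Il31ra not counted in the rule, Pde4c differed by 0.55 and did not pass (edgeR adjusted p = 0.215). Gm46392 differed by 1.89 with those nuclei and by 0.27 without them (edgeR adjusted p = 0.976).

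Npy1r, at 11.5, 40.6 and 54.3 CPM, differed by 1.82 (edgeR adjusted p = 0.0348), and by 1.21 without the deepest 10% of nuclei (edgeR adjusted p = 0.240). It differed by 1.56 without the nuclei of more Scn10a (edgeR adjusted p = 0.389) and by 1.87 with free RNA subtracted (edgeR adjusted p = 0.627). With DESeq2 Npy1r did not pass either. The transporter gene Slc5a11 differed by 3.36 from 3, 27 and 27 UMIs, with free RNA at 11.7, 38.2 and 72.0 CPM (edgeR adjusted p = 0.0348). Its call was lost without the nuclei of more Scn10a (edgeR adjusted p = 0.116), without the deepest 10% of nuclei (edgeR adjusted p = 0.0620), with free RNA subtracted (adjusted p = 0.600) and with DESeq2 (adjusted p = 0.768). With RLE size factors Slc5a11, Npy1r, Gm20559 and Gm46392 did not pass. The noncoding genes Gm20559 and 5730419F03Rik were higher by 2.29 and 1.44. In Trpm8 nuclei 5730419F03Rik was at 73.1, 236 and 221 CPM. It went the same way in free RNA, at 114, 207 and 213 CPM, and in the Lpar3 gate, at 93.1, 223 and 224 CPM.

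The lower gene of smallest adjusted p was Bc1, a short cytoplasmic RNA of dendrites and axons (chr7:144914470-144914637), at 976, 20.3 and 12.6 CPM, a difference of −6.04 (SE 0.26, edgeR adjusted p = 7.66e-12). In free RNA it was at 1128, 21.6 and 15.8 CPM. Gm48594 was at 211, 1.27 and 4.84 CPM in the nuclei and 351, 33.3 and 33.7 CPM in free RNA. Gm9920 had 72, 1 and 0 UMIs in the nuclei and was at 91.5, 10.1 and 8.38 CPM in free RNA. Gm44028 had 100, 4 and 1 UMIs, with 109, 34.1 and 24.9 CPM in free RNA, and Gm16867 had 57, 0 and 2 UMIs, with 31.0, 2.77 and 4.52 CPM. With free RNA subtracted the differences were −6.07 for Bc1, −8.75 for Gm48594, −8.68 for Gm9920, −9.22 for Gm44028 and −5.31 for Gm16867.

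Pth2r, a parathyroid hormone receptor gene, had 24, 0 and 0 UMIs, which makes it at least 12.0-fold lower in the aged libraries, taken against 3 counts over both. Its call was lost with RLE size factors (edgeR adjusted p = 0.106), without the nuclei of more Scn10a (edgeR adjusted p = 0.174) and with free RNA subtracted (adjusted p = 0.596). With Il31ra not counted in the rule it passed with a smaller difference of −3.29 (edgeR adjusted p = 0.0196). Gm46606 had 52, 0 and 0 UMIs, at least 26.0-fold lower by the same floor, but 50 of the 52 came from 1 nucleus. Rxfp1, the relaxin receptor gene, had 46, 0 and 1 UMIs, of which 40 came from 1 nucleus. The values of Gm46606 and Rxfp1 therefore rest mostly on a single adult nucleus each. With Il31ra not counted in the rule Rxfp1 differed by −1.75 and did not pass (edgeR adjusted p = 0.0896).

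**Figure D5:**
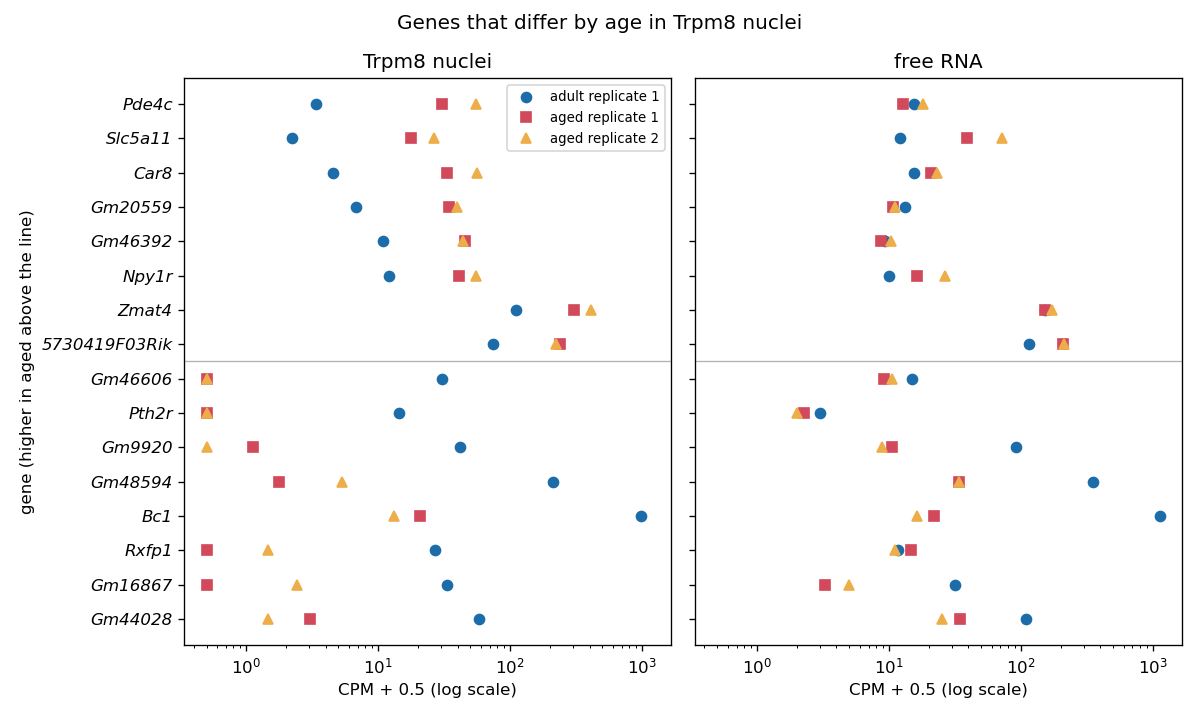
Level in CPM + 0.5 (x axes, log scale) of the 16 genes named for age (y axis), in Trpm8 nuclei (left) and in free RNA (right) of the 3 libraries. Above the line are genes higher in the aged libraries; Bc1 lies at 976 CPM in the adult nuclei and at 20.3 and 12.6 CPM in the aged ones, and its free RNA lies at 1128, 21.6 and 15.8 CPM.

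Neurofilament and cytoskeleton genes, which form the axonal skeleton, had 4 of 12 lower with age and none higher, beside 0.826% lower and 0.0729% higher over all genes. Nefh was at 569, 286 and 239 CPM (difference −1.31, edgeR adjusted p = 0.00139), Nefm at 809, 337 and 346 CPM (−1.45), Nefl at 1159, 577 and 416 CPM (−1.42) and Map1b at 3425, 2084 and 1865 CPM (edgeR adjusted p = 0.00327). Both aged libraries lay below the adult for each. After thinning to 2000 UMIs none of the 4 passed, with differences of 0.035 for Nefh (edgeR adjusted p = 0.998), −0.21 for Nefm, −0.55 for Nefl and −0.28 for Map1b. In free RNA Nefh went the other way, at 1773, 4056 and 2954 CPM. The cadherin genes Cdh23 and Pcdh9 were lower by −1.79 and −0.71, and the synaptic adhesion gene Lrrtm4 by −1.37. Of 7 abundant noncoding RNAs tested 3 were lower: Bc1, Meg3 at 19951, 9301 and 9778 CPM (−1.26) and Snhg11 (−0.75). The TRP, potassium, HCN, sodium and calcium channel lists and the transcription factors had no gene past the threshold in either direction.

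Foxp2, Kcnk9, Gpr26, Tac1, Calca and Trpv1 did not pass for age. Foxp2 differed by −0.34 ± 0.20 (SE; edgeR adjusted p = 0.660), Kcnk9 by −0.26 ± 0.25 and Gpr26 by 0.00 ± 0.24. Tac1, Calca and Trpv1 differed by −0.04, −0.07 and −0.37, with edgeR adjusted p-values of 0.988, 0.974 and 0.766. The Foxp2 call changed under alternatives chosen after seeing the data: it was lower in aged nuclei by −0.75 (edgeR adjusted p = 0.0303) without the deepest 10% of nuclei, and by −0.70 (edgeR adjusted p = 0.00994) with Il31ra not counted in the rule. Scn10a, which differed by 0.43 (edgeR adjusted p = 0.627), was higher by 1.69 (edgeR adjusted p = 4.83e-07) without the deepest nuclei. A miss of the threshold with 3 libraries does not show that the levels were equal.

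Whether the age difference of Trpm8 nuclei departs from that of the other gates was tested as an interaction over 15004 genes. With edgeR 0% passed (0 genes), 745 had an unadjusted p under 0.05, and DESeq2 called 1 gene. No age difference given above can therefore be called particular to Trpm8 nuclei. Bc1, for example, was at 792, 21.5 and 8.72 CPM in the Lpar3 gate. Of the 109 genes called by age and not used by the rule, 98 went the same way in free RNA and 75 in all the other gates. The share of all genes tested that did so is not given here, and all gates come from the same 3 libraries. These counts are therefore a description only.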

How the data were processed

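Nuclei were isolated from frozen L3 to L5 DRGs, and PIP-seq libraries were made from them. The deposited values were raw UMI counts per gene and barcode. The authors produced these counts with Pipseeker on mm10, per the submitters' processing notes; annotation and use of strand were not given in the sources used here. Gene positions were those of GENCODE M21, by Ensembl identifier (32098 of 32227, 99.6%).

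Members and gene lists were chosen with earlier results of these data known. UMIs were summed over the nuclei of a gate and library. Gates needed 10 nuclei in a library, so the Sstr2 gate was left out and 18 sums entered, not the 21 first planned. Sums were tested with edgeR 4.0.16 (TMM, filterByExpr, quasi-likelihood, Benjamini-Hochberg adjustment), in R 4.3.3, with DESeq2 1.42.0 as an alternative. Library was a block for gates. The edgeR fits for gates, age and the interaction were also run on simulated counts. Those counts had a fixed spread and no library effect, so they cannot show how the age test fares with 1 adult library. Python 3.11.15, numpy 2.4.6, scipy 1.17.1, pandas 2.3.3 and matplotlib 3.10.9 were used elsewhere. The study's tests over single nuclei were not repeated, and no doublet caller was run. Shares carry 95% exact Clopper-Pearson intervals of counting error. The study calls the 3 libraries biological replicates; the number of mice in each was not given.

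Genes were named by rule: in the gate comparison, the 15 higher and 8 lower of largest log2 difference among those past the threshold, at 20 CPM or more, and on the same side of every other gate in each library; for age, the 8 of largest difference in each direction with 20 UMIs or more and both aged libraries on one side of the adult; and up to 4 per list by the size of the difference, plus members of at least 20 CPM in the TRP, sodium channel, neurotrophin, transcription factor and neuropeptide lists. Genes of the split by Foxp2 and Scn10a, and some members named beside a list, were chosen after their values were seen. Some members of the lists are not reported here.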

Additional observations from a re-analysis of the deposited data

How the results depend on the processing

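The ratio of the aged to the adult share was 1.44. It was 1.15 with no Malat1 minimum, 1.06 after thinning to 2000 UMIs, 1.66 as a share of the 7 gates and 1.65 of all kept nuclei. The last of these was 1.08 with more than 2000 genes required and 1.22 after thinning. Without an aged library the ratio by neuron nuclei ranged from 1.40 to 1.48. Some alternatives were chosen after seeing the data: Il31ra not counted in the rule (ratio 1.66), nuclei of more Scn10a than Foxp2 left out (1.21), the deepest 10% of nuclei left out, and the Il31ra gate left out. The gate comparison called 3354 of 15004 genes (22.4%). After thinning it called 475 of 2481 (19.1%), with 5 gates in the fit and not 6. Without 1 library it called 1853 to 2448, or 11.8 to 16.0% of the genes tested (2064 without the adult library, 1853 without aged replicate 1). The 23 named genes passed in every setting in which they were tested; 17 were not tested after thinning and 6 with at least 50 UMIs. The age comparison called 111 of 12344 genes (0.899%), and 6 of 1092 (0.549%) after thinning. The count was 182 (1.47%) with a 2-UMI gate, 12 (0.100%) with free RNA subtracted, 734 (5.26%) without Il31ra in the rule and 333 (2.86%) without the deepest nuclei. It was 62 (0.543%) without the Scn10a nuclei, 59 (0.478%) with RLE size factors, 223 (1.01%) without a filter, 63 (0.648%) with 50 UMIs and 36 (0.292%) with DESeq2. Of its 16 named genes 2 passed with free RNA subtracted (0 turned direction), 7 with DESeq2 and 8 without the Scn10a nuclei. The interaction called 0 genes, 3 (0.0207%) with free RNA subtracted, 1 (0.00618%) without Il31ra in the rule, 6 (0.0417%) without the deepest nuclei, 53 (0.182%) without a filter and 1 (0.00666%) with DESeq2. In the gate comparison the direction turned after thinning for Kcnk13 (1.04) and Ifi27 (−0.34), without Il31ra in the rule for Hopx (0.25), Nfia (0.28) and Cdkn1a (−0.0567), and without the Scn10a nuclei for Galr1 (−0.53). Nefh by age was 0.035 after thinning. The causes were not tested. No paired analysis was possible because adult and aged libraries share only 1 replicate number. Leaving out an aged library leaves no residual degrees of freedom, so that age and the interaction were not tested that way. With 33 Trpm8 nuclei in the smallest library, depth limits what low genes can show.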

Other observations

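Circadian clock genes differed between Trpm8 nuclei and the other gates in 7 of 14 tested, with 5 higher and 2 lower by edgeR, beside 22.4% of all genes (11.3% higher and 11.1% lower). Rora, a nuclear receptor of the clock, was at 2205, 1343 and 2000 CPM against 482, 466 and 518 CPM in the Tafa4 gate, the next highest, and differed by 2.40. Arntl, Per3, Nr1d2 and Dbp were higher by 1.27, 1.12, 1.05 and 0.96, though the Il31ra gate was above the Trpm8 nuclei for Dbp in each library. Npas2, a partner of the clock protein made from Arntl, was at 2.30, 1.27 and 1.94 CPM against 100, 87.9 and 106 CPM in the Tafa4 gate and lower by −4.14, and Cry2 was lower by −0.36. By age none of 12 passed.

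Of the nerve injury and regeneration genes 5 of 21 were higher, beside 11.3% of all genes, and 1 was lower, beside 11.1%. The share of both together was near the 22.4% of all genes. Besides Gal, Stmn4 differed by 1.78 and Gap43, a growth cone protein gene, by 1.45, at 177, 228 and 169 CPM, below the 263, 273 and 307 CPM of the Chrna7 gate. Immediate early and heat shock genes had none of 13 past the threshold, and genes of the mitochondrial genome none of 10. Interferon-inducible genes had 3 of 27 higher, a share near the 11.3% of all genes, and senescence genes 4 of 10. None of these lists had a gene past the threshold by age.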
